A study of Mus musculus with 4 samples.

Results

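The expression of 10 genes of protein folding in the endoplasmic reticulum (ER) was examined in ZBP1-depleted bone marrow-derived mesenchymal stem/stromal cells (mBMSCs). They were chosen by symbol, and all 10 were found among the 24346 gene rows of the deposited table: the chaperones Hspa5, Hsp90b1 and Calr, the protein disulfide isomerases Pdia3, Pdia4 and Pdia6, the co-chaperone Dnajb9 and the transcription factors Xbp1, Atf6 and Creb3l1. The cells were primary adherent cells from the femoral marrow of wild-type C57BL/6 mice (C57BL/6J in the study's methods) aged 3 months, transfected by lipofection with scrambled siRNA (siScr, n = 2) or with siRNA targeting ZBP1 (siZBP1, n = 2), and no osteogenic or adipogenic induction is stated for these samples. The study describes a pair of siRNAs to ZBP1, and the labels do not say which was used in either siZBP1 sample. Levels are FPKM, fragment numbers scaled by transcript length and library size, so that genes can be compared per length. The methods speak of duplicated mBMSCs for RNA-seq, and nothing states whether the replicates of a group came from separate mice or cultures. The p-values therefore measure only the spread between these samples, which may be technical.

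The ER is where secreted and membrane proteins fold. HSPA5 (BiP) binds unfolded chains, HSP90B1 (GRP94) finishes selected clients, and calreticulin holds glycoproteins by their sugars while the disulfide isomerases form and rearrange their disulfide bonds. When unfolded protein builds up, the sensors IRE1, PERK and ATF6 start the unfolded protein response, in which spliced XBP1 and cleaved ATF6 raise the transcription of chaperones. Stromal cells and osteoblasts export large amounts of collagen, and CREB3L1 (OASIS), a membrane-bound factor of the ATF6 type, is known for its part in the collagen output of osteoblasts.

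Many chaperone genes carry the ER stress element in their promoters, which is written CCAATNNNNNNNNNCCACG and was searched on both strands in the 250 bases before the start of each RefSeq gene on GRCm38.p6 and the 50 bases after it. This search was made after the changes of the genes were known. The element was found in 39 of 32851 promoters (0.119%). Promoters of 8 of the 10 genes were in the table, all but those of Atf6 and Creb3l1, and 4 of the 8 held it, those of Hspa5, Hsp90b1 (2 sites), Calr and Pdia6. With 1 of the letters other than N changed, which 1.5% of promoters allowed, Pdia3 and Pdia4 also had a match, and Hsp90b1 had a further site. The sites are shown because the changes of the genes with the full element are set beside those of the others below. Each is written 5′ to 3′ along the element with 5 bases on each side, and capitals mark the letters that match it.
Hspa5: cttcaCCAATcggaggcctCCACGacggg
Hsp90b1, distal: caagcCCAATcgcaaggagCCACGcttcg
Hsp90b1, proximal: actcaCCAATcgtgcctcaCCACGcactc
Calr: atgggCCAATgagggtcgaCCACGcgttg
Pdia6: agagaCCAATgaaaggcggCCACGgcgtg
Pdia3: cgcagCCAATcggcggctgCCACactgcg
Pdia4: gaccaCCAATcacgggctgCCACtcggtt

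Counted from 1 at the 5′ end of the element, the changed letter was G19A in Pdia3 and G19T in Pdia4. The elements lie at chr2:34772025-34772043 (plus strand) for Hspa5, chr10:86705638-86705656 (minus strand) and chr10:86705533-86705551 (plus strand) for Hsp90b1, chr8:84847075-84847093 (plus strand) for Calr and chr12:17266491-17266509 (plus strand) for Pdia6. The near matches lie at chr2:121413873-121413891 for Pdia3 and chr6:47813602-47813620 for Pdia4, both on the plus strand. In GENCODE M21 the sites of Hspa5 and Pdia3 also overlap exons of longer transcripts of the same genes, and the others overlap no exon of their gene. The core TGACGTG, to which XBP1 and ATF6 are known to bind, was found in 2.01% of promoters and among the 8 only in that of Hspa5, and ATTGGNCCACG was found in 0.0365% of promoters and in none of the 8. A match describes these letters and shows no binding.

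The target of the siRNA was examined first. Zbp1 was at 86.0 and 62.0 FPKM in the siScr samples and at 11.5 and 11.6 FPKM in the siZBP1 samples, with a log2 fold change of -2.56 (standard error 0.16, limma adjusted p = 0.00322). The FPKM of a sample summed to 477974 to 492166. The lowest values of long genes, taken as those of single fragments, put the depth roughly at 11000000 to 21000000 fragments, with siZBP1 replicate 1 the shallowest. Of 10 markers of mesenchymal cells, all were above 1 FPKM and 4 were lower in siZBP1 cells by limma (40%). All 6 osteoblast markers were lower, against 14.8% of all genes tested. All 10 macrophage markers were also present, with none at 0, and summed to 6206 to 7132 FPKM in siScr and 9650 to 10261 FPKM in siZBP1 samples. Lyz2 had the largest part in these sums, at 2814 and 3647 FPKM in siScr and 5871 and 5402 FPKM in siZBP1 samples. The rises of single markers ran from 8.74% for Adgre1 to 139% for Mrc1. All 10 were higher in both siZBP1 samples than in either siScr sample, as were 34.7% of all genes tested. Of the 10, 7 passed the test (70%, against 13.5% of all genes tested), and Ptprc, Cd14 and Adgre1 did not. Endothelial markers summed to 4.52 to 5.42 FPKM. Sdc1, a plasma cell marker that stromal cells also express, was at 61.4 and 56.6 FPKM in siScr and at 32.6 and 31.5 FPKM in siZBP1 samples (limma adjusted p = 0.00338). The part of the macrophage markers in the changes of the ER genes was not tested. In bulk RNA, fewer cells of a type and less RNA per cell cannot be told apart.

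The 10 ER genes did not move as a group in ZBP1-depleted cells (the plots of FPKM by sample and of the changes). Pdia3, Pdia4, Dnajb9 and Creb3l1 fell, Hsp90b1, Calr and Pdia6 rose, and Hspa5, Xbp1 and Atf6 did not pass the test. Limma, fitted to log2(FPKM + 1) of all 11959 genes with a mean of at least 1 FPKM, thus called 4 of 10 lower, against 14.8% of all genes tested, and 3 of 10 higher, against 13.5%. The genes are abundant, and among the 4056 genes with a mean of at least 20 FPKM the shares were 18.8% lower and 22.2% higher. The median log2 fold change of the 10 was -0.13, against 0.0045 over all genes tested. Both siZBP1 samples were below both siScr samples for 6 of the 10 and above them for 3, against 33.7% and 34.7% of all genes, and only Hspa5 overlapped. The means of the groups differed more than 1.5-fold for Pdia3 alone, which was lower, as were 8.65% of the genes tested, and 4.21% were higher by as much.

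The calls rest on both siZBP1 samples. Without siZBP1 replicate 1 or without siZBP1 replicate 2, 0 of the 7 calls stayed past the limma threshold, with adjusted p from just above the threshold for Pdia3 to 0.185 for Creb3l1, although 6 and 7 of the 7 had an unadjusted p under 0.05. Without siScr replicate 1, the calls of Pdia3, Pdia4 and Calr stayed, and without siScr replicate 2 all 7 did. The direction of the 7 was the same in each of these fits. An exact two-sided permutation test on 2 and 2 samples can reach no p smaller than 0.333, and limma's p-values therefore rest on the variance it shares between genes.

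**Figure D1:**
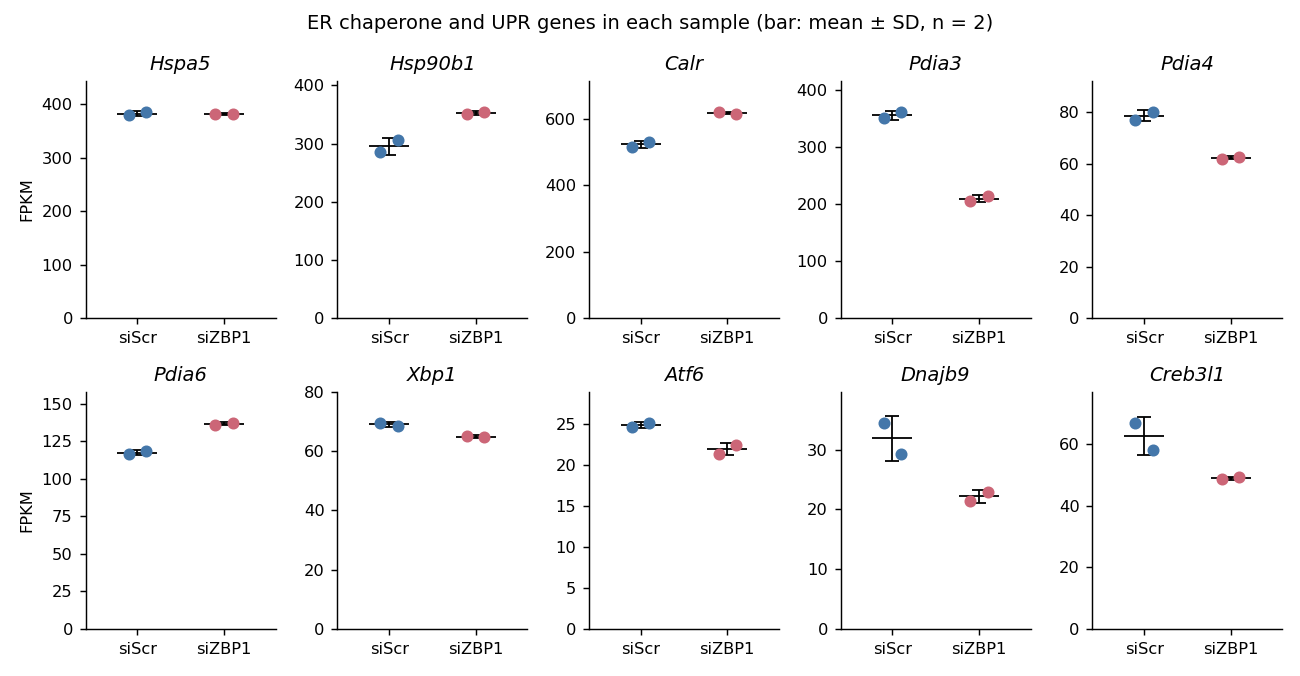
FPKM (vertical axes, from 0) of the 10 ER genes in each of the 2 siScr (blue) and 2 siZBP1 (red) samples, with the mean and SD as black bars. Pdia3 fell from a mean of 356 to 210 FPKM, Calr rose from 524 to 619 FPKM, and the samples of Hspa5 lay between 379 and 385 FPKM in both groups.

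**Figure D2:**
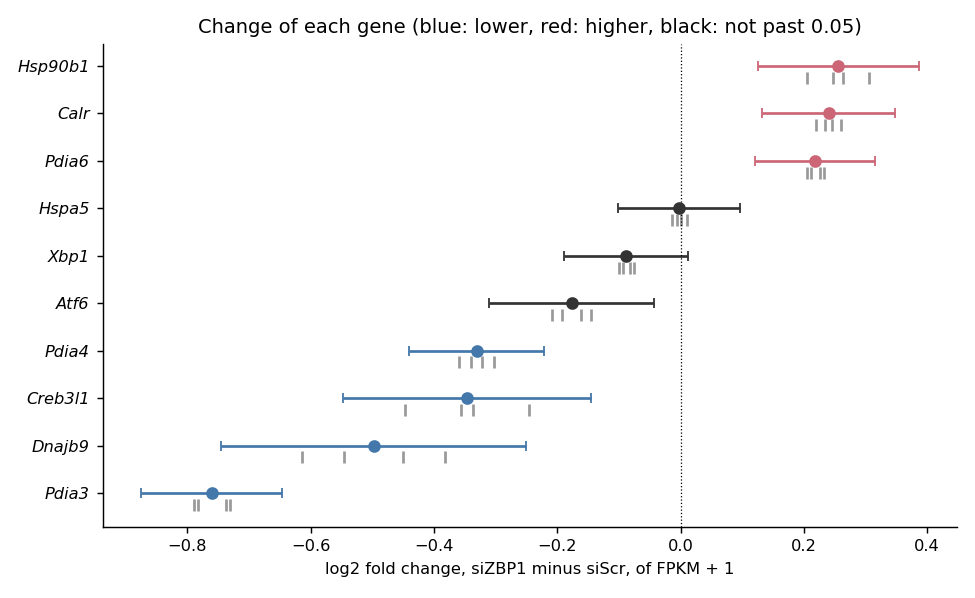
Limma log2 fold change of FPKM + 1 (horizontal axis, siZBP1 minus siScr) of each gene with its 95% confidence interval, in blue for genes called lower, red for genes called higher and black for the others. Grey marks are the values with each of the 4 samples left out in turn, and those of the 7 called genes stay on 1 side of 0.

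Among the 3 chaperones, Hspa5 was level while Hsp90b1 and Calr rose. Hspa5, the main chaperone of the ER, lies on chromosome 2 of GRCm38 from 34771970 to 34777547. It was at 379 and 385 FPKM in the siScr samples and at 381 and 382 FPKM in the siZBP1 samples. Its log2 fold change was -0.0022, with a 95% confidence interval from -0.10 to 0.097 (limma adjusted p = 0.974), so that a change of either sign larger than this interval was not seen in these samples. Hsp90b1, the ER form of HSP90, lies on chromosome 10 from 86690209 to 86705509. It was at 285 and 305 FPKM in siScr and at 350 and 354 FPKM in siZBP1 samples, and rose by 19.4% (log2 fold change 0.26, standard error 0.049, limma adjusted p = 0.0247). Both siZBP1 samples were above the higher siScr sample, and the siScr samples differed more from each other than the siZBP1 samples did. Calr, which encodes the soluble lectin calreticulin, lies on chromosome 8 from 84841850 to 84846934. It had the highest level of the 10 genes, with 516 and 532 FPKM in siScr and 621 and 617 FPKM in siZBP1 samples, and rose by 18.1% (log2 fold change 0.24, standard error 0.041, limma adjusted p = 0.0185).

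The disulfide isomerases split. Pdia3 (ERp57), the isomerase that works with calreticulin and calnexin on glycoproteins and that also serves in the loading of MHC class I, had the largest change of the 10 genes. It lies on chromosome 2 from 121413775 to 121438687. Pdia3 was at 350 and 361 FPKM in the siScr samples and at 205 and 214 FPKM in the siZBP1 samples. It was thus 1.70-fold lower in siZBP1 cells (log2 fold change -0.76, standard error 0.043, limma adjusted p = 0.00277), far beyond the distance between replicates. Pdia4 (ERp72), on chromosome 6 from 47796141 to 47813430, was at 77.1 and 80.1 FPKM in siScr and at 61.8 and 62.7 FPKM in siZBP1 samples. It was 1.26-fold lower (log2 fold change -0.33, standard error 0.042, limma adjusted p = 0.00974). Pdia6 (P5), an isomerase found in complex with BiP, went the other way. It lies on chromosome 12 from 17266545 to 17284770 and was at 116 and 119 FPKM in siScr and at 136 and 137 FPKM in siZBP1 samples, a rise of 16.5% (log2 fold change 0.22, standard error 0.037, limma adjusted p = 0.0182).

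The ratios between these genes within a sample do not depend on how the libraries were scaled. The FPKM of Calr was 1.47 times that of Pdia3 in each of the siScr samples and 3.03 and 2.88 times in the siZBP1 samples, a difference of 1.00 on the log2 scale, against at most 0.07 between replicates. The ratio of Pdia6 to Pdia4 was 1.51 and 1.48 in siScr and 2.20 and 2.19 in siZBP1 samples. For Pdia6 to Pdia3 it was 0.332 and 0.328 in siScr and 0.663 and 0.642 in siZBP1 samples. In both of these pairs the siZBP1 samples lay above the siScr samples by several times the distance between replicates. The ratio of Hsp90b1 to Hspa5 was 0.752 and 0.792 in siScr and 0.920 and 0.927 in siZBP1 samples. That of Calr to Canx, the gene of calnexin, moved little, from 2.74 and 2.66 in siScr to 2.9 and 2.8 in siZBP1 samples. Its log2 difference was 0.08, against at most 0.05 between replicates. The pairs were chosen with the changes known, and these ratios describe the samples without a test. The summed level of the 6 chaperones and isomerases was nearly level, at 1724 and 1782 FPKM in siScr and 1756 and 1767 FPKM in siZBP1 samples. Within this sum, the 3 isomerases went from 552 ± 11.5 to 409 ± 7.64 FPKM (SD, n = 2 each), and Hspa5, Hsp90b1 and Calr together from 1201 ± 29.8 to 1353 ± 0.730 FPKM (SD, n = 2 each).

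**Figure D3:**
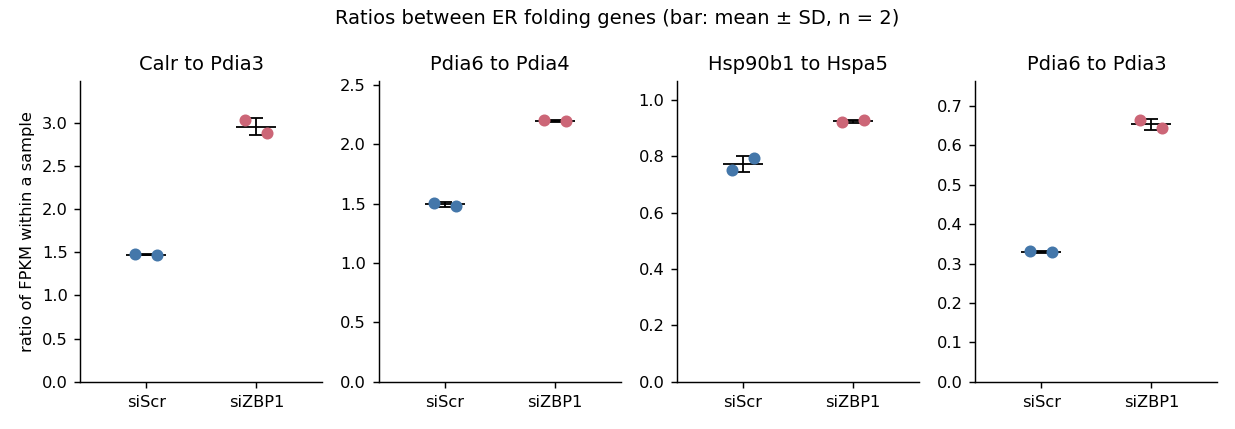
Ratio of the FPKM of 2 genes within each sample (vertical axes, from 0) in siScr (blue) and siZBP1 (red) samples, with the mean and SD of 2 samples as black bars. The ratio of Calr to Pdia3 was 1.47 ± 0.00195 in siScr and 2.95 ± 0.102 in siZBP1 samples, and in all 4 panels the siZBP1 samples lie above the siScr samples.

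Of the regulators, Creb3l1 fell while Xbp1 and Atf6 changed little. Creb3l1 lies on chromosome 2 from 91982328 to 92024502 on the minus strand. It was at 67.0 and 58.2 FPKM in siScr and at 48.6 and 49.3 FPKM in siZBP1 samples, 1.28-fold lower (log2 fold change -0.35, standard error 0.076, limma adjusted p = 0.0341). The siScr samples of Creb3l1 were well apart, and its log2 fold change lay at -0.25 when siScr replicate 1 was left out and at -0.45 when siScr replicate 2 was. Xbp1, the factor that IRE1 activates by splicing its mRNA, lies on chromosome 11 from 5520659 to 5525893. It was at 69.6 and 68.5 FPKM in siScr and at 65.2 and 64.6 FPKM in siZBP1 samples. The groups did not overlap, but the log2 fold change of -0.088 did not pass the test (95% confidence interval -0.19 to 0.013, limma adjusted p = 0.157). FPKM per gene do not separate spliced from unspliced Xbp1 mRNA, so the activity of IRE1 was not measured. Atf6, on chromosome 1 from 170704674 to 170867771, was at 24.7 and 25.2 FPKM in siScr and at 21.4 and 22.5 FPKM in siZBP1 samples (log2 fold change -0.18, 95% confidence interval -0.31 to -0.043, limma adjusted p = 0.0632). ATF6 is activated by cleavage of its protein, which mRNA levels do not show.

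Dnajb9 (ERdj4), a J-domain partner of BiP and a known target of spliced XBP1, lies on chromosome 12 from 44205559 to 44210326. It was at 34.5 and 29.2 FPKM in siScr and at 21.5 and 23.0 FPKM in siZBP1 samples, 1.43-fold lower (log2 fold change -0.50, standard error 0.093, limma adjusted p = 0.0231). The siZBP1 samples were both below the lower siScr sample, by more than the siScr samples differed from each other. The FPKM of Hspa5 was thus 11 and 13.2 times that of Dnajb9 in siScr and 17.7 and 16.6 times in siZBP1 samples.

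In siScr cells the order of levels was Calr, Hspa5, Pdia3, Hsp90b1, Pdia6, Pdia4, Xbp1, Creb3l1, Dnajb9 and Atf6, with means from 524 to 24.9 FPKM, and the samples of neighbours in this order did not overlap. In siZBP1 cells Hsp90b1 (352 FPKM) stood above Pdia3 (210 FPKM), and Xbp1 (64.9 FPKM) above Pdia4 (62.3 FPKM). At the lower end, Dnajb9 (22.2 FPKM) and Atf6 (22 FPKM) overlapped in siZBP1 samples and could not be ordered there. Calr lay above 98.9% of the tested genes in siScr cells and above 99.3% in siZBP1 cells, and Atf6 above 72.0% and 69.1%.

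The genes with the full ER stress element printed above were those that rose, Hsp90b1, Calr and Pdia6, together with Hspa5. None of the 4 that fell had it in the promoters searched: Pdia3 and Pdia4 had a match with 1 letter changed, Dnajb9 had neither, and the promoter of Creb3l1 was not searched. Over all genes, 13 with the element in a promoter were tested, and limma called 6 of them higher and 0 lower. Since 4 of these are the genes that prompted the search, the other 9 are given on their own: Dnajc3, Syvn1 and Alg12 rose, 0 were lower at the adjusted threshold and 0 at an unadjusted p under 0.05, and the median log2 fold change was 0.14. Of all 9005 tested genes with a promoter in the table, 14.0% were called higher and 14.9% lower. Among the 9, 33.3% were called higher, near the 33.9% of the other ER genes listed below, which were taken without regard to their promoters. These sets overlap, as Dnajc3, Syvn1, Canx and Creld2 are in both, and a share of 9 genes moves far with 1 gene. Dnajc3, a co-chaperone of BiP that inhibits PERK, went from 31.7 ± 1.32 to 42.3 ± 0.280 FPKM (SD, n = 2 each). Syvn1, the ubiquitin ligase HRD1, went from 23.6 ± 0.0746 to 28.1 ± 0.643 FPKM (SD, n = 2 each). Calnexin, the membrane-bound relative of calreticulin, also has the element, and Canx was at 188 and 199 FPKM in siScr and 214 and 220 FPKM in siZBP1 samples without passing the test (limma adjusted p = 0.0617). Creld2 has it as well and had a lower mean in siZBP1 cells (log2 fold change -0.19, limma adjusted p = 0.174). These counts describe the promoters and were not tested.

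**Figure D4:**
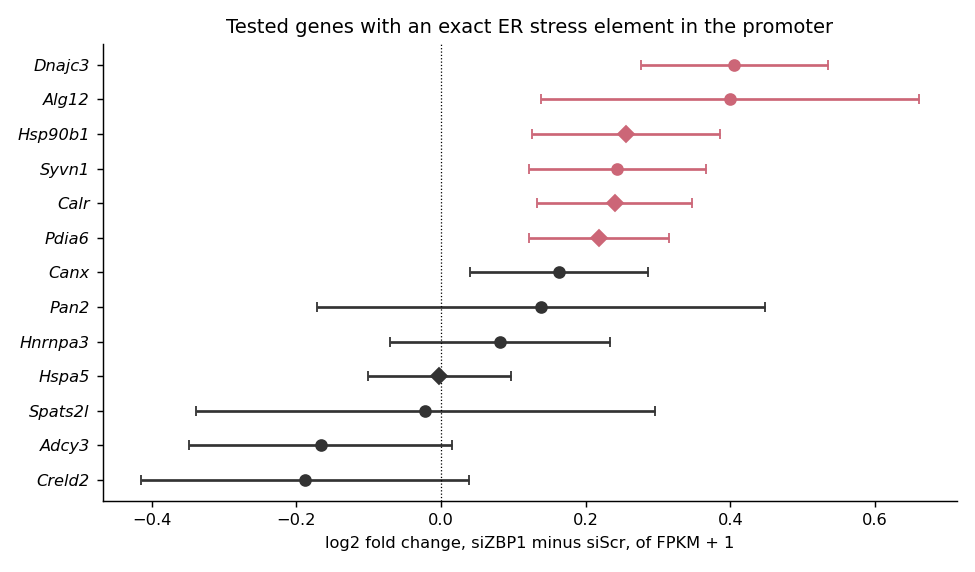
Limma log2 fold change of FPKM + 1 (horizontal axis, siZBP1 minus siScr) with 95% confidence intervals for the 13 tested genes with an exact ER stress element in the promoter, in red where called higher and black where not called. Diamonds are Hsp90b1, Calr, Pdia6 and Hspa5, circles the other 9 genes, and the values run from -0.19 for Creld2 to 0.41 for Dnajc3.

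The other genes of the ER pathway, were taken from lists by function. Of 112 listed genes 109 were tested, of which 37 were higher and 19 lower in siZBP1 cells by limma, with a median log2 fold change of 0.10. The share that was higher was thus 33.9%, against 13.5% of all genes tested and 22.2% of those with a mean of at least 20 FPKM. The share that was lower, 17.4%, was near those of 14.8% and 18.8% over the same genes. Leaving out a siZBP1 sample left 0 higher and 1 (replicate 1) or 2 (replicate 2) lower, and leaving out siScr replicate 1 left 17 higher and 16 lower.

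Of 20 further chaperones, co-chaperones and genes of the lectin cycle, 10 were higher (50%) and 1 lower (5%), with a median log2 fold change of 0.17. The shares over all genes tested were 13.5% higher and 14.8% lower, and over those with a mean of at least 20 FPKM 22.2% and 18.8%. Sdf2l1, a partner of ER J-domain proteins and a sensitive gene of the unfolded protein response, rose most, from 31.2 and 37.0 FPKM in siScr to 67.5 and 60.3 FPKM in siZBP1 samples (log2 fold change 0.89, limma adjusted p = 0.00860). The prolyl isomerase Fkbp2 rose from 38.5 ± 3.12 to 61.1 ± 1.32 FPKM and the BiP co-chaperone Dnajb11 from 70.2 ± 0.871 to 85.7 ± 2.56 FPKM (SD, n = 2 each). The gene of this list that fell was Fkbp10, a collagen chaperone, from 103 ± 7.95 to 73.4 ± 0.618 FPKM (SD, n = 2 each). The collagen-specific chaperone Serpinh1, counted below with ER exit and return, fell as well.

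Of 15 other genes of oxidative folding, 5 were lower (33.3%), 4 were higher (26.7%) and 6 did not pass the test. Among genes with a mean of at least 20 FPKM, 18.8% were lower and 22.2% higher, so the share that was higher was near theirs. Ero1l, the oxidase that recharges the disulfide isomerases, fell most, from 42.1 and 40.8 FPKM in siScr to 16.9 and 18.0 FPKM in siZBP1 samples (log2 fold change -1.20, limma adjusted p = 0.00223). Tmx4 was 1.84-fold, Qsox1 1.76-fold and Txndc5 1.25-fold lower. Tmx1 rose by 28.5%, Txndc11 by 27.8% and Erp29 by 22.8%.

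Of 17 tested genes of ER-associated degradation, which returns misfolded proteins to the cytosol, 8 were higher (47.1%) and 2 lower (11.8%). Over all genes tested the shares were 13.5% and 14.8%. Fam8a1 rose by 44.7%, Erlec1 by 35.8% and Edem1, a lectin for misfolded glycoproteins and a target of XBP1, by 23.4%. The genes that fell were Herpud1, which stress of the ER induces, from 41.6 ± 2.51 to 31.6 ± 1.42 FPKM, and Ube2j1, from 33.8 ± 2.04 to 24.5 ± 1.46 FPKM (SD, n = 2 each). Herpud1 and Dnajb9 thus moved down while Sdf2l1 and Edem1 moved up, although all are known as genes of the unfolded protein response.

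Among 8 tested sensors and membrane factors, Creb3l2, the nearest relative of Creb3l1, and Mbtps2, the protease that cleaves ATF6 and its relatives in the membrane, rose. The share was 25%, against 13.5% of all genes tested and 22.2% of those with a mean of at least 20 FPKM. Creb3l2 was at 9.94 and 10.4 FPKM in siScr and at 16.4 and 14.7 FPKM in siZBP1 samples (log2 fold change 0.56, limma adjusted p = 0.0105), opposite to Creb3l1. In the PERK branch, the sensor Eif2ak3 rose from 9.78 ± 0.229 to 14.1 ± 0.148 FPKM (SD, n = 2 each), whereas 4 of the other 5 genes fell. Of the 6 genes of this branch 66.7% were lower and 16.7% higher, against 14.8% and 13.5% of all genes tested. Trib3 was 2.69-fold, Ddit3 2.07-fold, Chac1 1.70-fold and Atf4 1.57-fold lower.

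Of 23 genes of translocation, signal cleavage and N-glycosylation, 10 were higher (43.5%) and 3 lower (13.0%). The share that was lower was near the 14.8% of all genes tested, of which 13.5% were higher. Sec11c, of the signal peptidase, rose by 49.8%, and Dad1, of the oligosaccharyl transferase, by 46.2%. Ssr1 and Ssr3, subunits of the translocon-associated complex, were 1.45-fold and 1.33-fold lower. Of 20 genes of ER exit and return, 4 were lower (20%), 2 were higher (10%) and 14 did not pass the test. Over all genes tested the shares were 14.8% and 13.5%, and over those with a mean of at least 20 FPKM 18.8% and 22.2%. Both siZBP1 samples lay below both siScr samples for 12 of the 20 and above them for 5, against 33.7% and 34.7% of all genes. Serpinh1 (HSP47), the collagen-specific chaperone, had the largest fall of all the listed ER genes, from 492 and 418 FPKM in siScr to 138 and 147 FPKM in siZBP1 samples (log2 fold change -1.66, limma adjusted p = 0.00268). Kdelr3, a receptor that returns chaperones to the ER, was 1.59-fold lower. Tmed2, a cargo receptor of transport vesicles, was 1.25-fold lower, and Mia3 (TANGO1), which loads procollagen into transport carriers, was 1.19-fold lower. The genes that rose were Sec24c and Sar1b, both of the COPII coat that buds from the ER, by 33.1% and 29.3%.

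**Figure D5:**
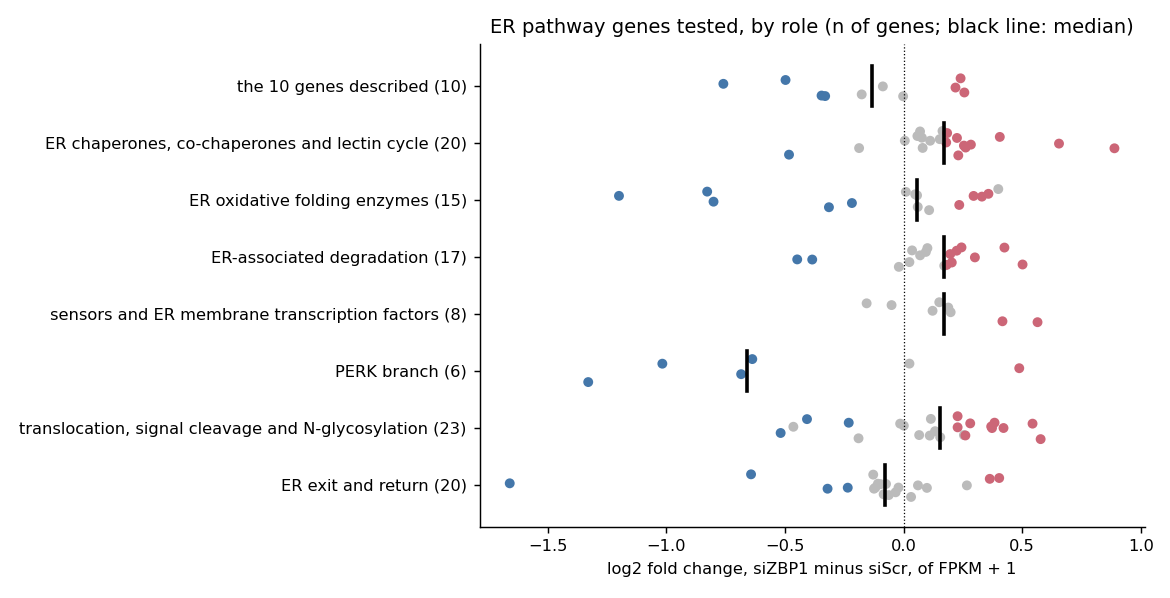
Limma log2 fold change of FPKM + 1 (horizontal axis, siZBP1 minus siScr) of the 10 genes and of 109 other tested ER genes by role, 1 point a gene, in blue where called lower, red where called higher and grey otherwise, with black lines at the medians. The medians run from -0.66 for the 6 genes of the PERK branch to 0.17 for the further chaperones, the degradation genes and the sensors, and the lowest point is Serpinh1 at -1.66.

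Beside these values stand those of the proteins the ER exports. The summed FPKM of 16 abundant or well-known secreted matrix genes was 13211 and 11781 in siScr and 10571 and 10682 in siZBP1 samples. Of the 16, 6 were lower (37.5%) and 2 higher (12.5%), against 14.8% and 13.5% of all genes tested. Col1a1 went from 2793 ± 386 to 1160 ± 44.6 FPKM and Fn1 from 1734 ± 30.2 to 2521 ± 26.1 FPKM (SD, n = 2 each). The sum depends on a few abundant genes, which moved in both directions. Postn, for example, fell from a mean of 1376 to 590 FPKM, while Fn1 rose. Without Col1a1 alone, in a sum added after the values were seen, the other 15 genes were at 10145 and 9261 FPKM in siScr and at 9443 and 9490 FPKM in siZBP1 samples, and the groups overlapped. Sums without other genes were not made.

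By distance of their centred log2(FPKM + 1) values over the 4 samples, the tested genes most like Creb3l1 were Phyhd1 (distance 0.015), AI464131 (0.017) and Lamc1 (0.020). As follows from this choice, each of these was highest in siScr replicate 1 and lower in both siZBP1 samples, as Creb3l1 was. Lamc1 encodes a laminin chain. Those most like Hspa5 were Pspc1 (0.0074), Zfp386 (0.0094) and Braf (0.012), which were level by the same choice. With 4 samples many genes share a profile, as 228 tested genes lay within a distance of 0.1 of Creb3l1 and 1458 of Hspa5.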

How the data were processed

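RNA-seq of 2 siScr and 2 siZBP1 samples was used. The authors prepared TruSeq libraries, mapped reads to mm10 with Tophat and deposited FPKM values per gene, extracted with HTSeq as the methods state, whereas the submitters' processing notes name TopHat and Cufflinks. The annotation, filters and read numbers are not given in the sources used here, and the authors' deposited group means were not used. Genes averaging 1 FPKM or more over the 4 samples (11959) were fitted on the log2(FPKM + 1) scale by limma 3.58.1 in R 4.3.3, its variance prior following a trend on the level, with two-sided p-values adjusted by Benjamini and Hochberg over all of them at 0.05. The pseudocount of 1 understates changes of low genes. The fit was tested on simulated data. Depth was estimated from the 40 lowest values of genes over 3000 bases with 1 annotated transcript, and no counting error was computed from it. Positions came from GENCODE M21 and promoters from RefSeq, both on GRCm38. Python 3.11.15, numpy 2.4.6, pandas 2.3.3 and matplotlib 3.10.9 were used.

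The members and lists were chosen with earlier results of these data known. All 10 ER genes and Zbp1 are named, and genes of the other lists were named from the up to 4 in each direction with the largest change among those past the threshold. Canx, Creld2 and Alg12 were named after their values were seen. Same-numbered samples did not deviate together (correlation -0.063 over 11959 genes), so replicates were not paired. Alternatives changed the pseudocount, filter, scaling, variance trend, replicate block and samples. The result of 1 marker list is not reported here.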

Additional observations from a re-analysis of the deposited data

How the results depend on the processing

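With all samples, 46 of 49 values of the 7 called ER genes stayed past the limma threshold over 7 alternatives. The exceptions came without a variance trend, where Hsp90b1, Pdia6 and Creb3l1 were at adjusted p = 0.0578, 0.0559 and 0.0619, so that 3 genes were lower and 1 higher, and where 23 other ER genes were higher. Atf6 passed only with a mean of at least 5 FPKM (limma adjusted p = 0.0476). The log2 fold change of Hspa5, -0.0022, changed sign to 0.0099 with FPKM rescaled to equal sums, to 0.022 after quantile normalization, to 0.0099 without siScr replicate 2 and to 0.00090 without siZBP1 replicate 1, and ranged from -0.014 to 0.0099 with 1 sample left out, all far within its interval. The replicate block gave 4 lower and 3 higher ER genes, as without it, and 1654 lower and 1465 higher of all genes. It changed no call of the 10 genes.

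With 1 sample left out, so that its group holds 1 whose spread is taken from the other group, the counts ranged from 0 to 4 lower and 0 to 3 higher for the 10 ER genes, from 1 to 18 lower and 0 to 33 higher for the other ER genes, and from 48 to 1467 lower and 22 to 1248 higher for all genes. The log2 fold change of Zbp1 ranged from -2.79 to -2.33, with adjusted p = 0.0618 without siZBP1 replicate 1 and 0.0510 without siZBP1 replicate 2. Fewer samples are part of these settings. The read numbers are not given, so that counting error could not be set beside the spread of replicates.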
